A study of Lytechinus variegatus with 9 samples.

Results

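The genes described here encode membrane carriers for amino acids, monocarboxylates such as lactate, and glucose in the sea urchin Lytechinus variegatus. They were chosen by their product descriptions in the gene annotation, which had to name a sodium- and chloride-dependent transporter, a monocarboxylate transporter, an amino acid transporter (excitatory ones included), a facilitated glucose transporter or a sodium/glucose cotransporter. Transporters of GABA, serotonin and dopamine were dropped (8 genes). Of the 26814 genes counted, 288 matched, and the 190 of these with a total of 30 counts or more over all libraries are the members. The other 98 had fewer counts, and 18 of them had none. The rule also names LOC121424436 and LOC121430638, both of which match by description, and it was set with earlier results of these data known. Its terms used no value other than this total.

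RNA came from whole wild-type (WT) embryos treated with K02288 at 1 µM, with axitinib at 75 nM or with the solvent DMSO. K02288 inhibits type I BMP receptors, and axitinib inhibits the VEGF receptor. All embryos grew at 21 °C in artificial seawater without drug until their first tri-radiate spicule rudiments had formed, between 18 and 20 hpf, and then stayed in drug or DMSO until the late pluteus stage at 2 dpf. Each of 3 matings supplied 1 K02288, 1 axitinib and 1 DMSO library, so that n = 3 libraries per treatment, and the replicate number is the number of the mating. The drugs reached every tissue of the embryo, and in such bulk samples fewer cells of a type and less RNA per cell cannot be told apart.

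The sodium- and chloride-dependent (SLC6-type) carriers and the excitatory amino acid transporters (SLC1-type) use the inward gradient of sodium to load cells with amino acids, while many SLC7-type carriers exchange 1 amino acid for another and work with a heavy-chain partner protein. The monocarboxylate transporters (MCT, SLC16-type) include, in vertebrates, the proton-linked carriers of lactate and pyruvate that join glycolytic cells to cells that burn lactate, and the sodium-coupled ones (SMCT) drive the same substrates inward with sodium. Facilitated glucose transporters (GLUT) let glucose pass down its gradient, sodium/glucose cotransporters (SGLT) pull it in against that gradient, and sea urchin larvae are known for taking up dissolved amino acids from seawater.

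By description, the members comprised 89 MCT, 20 SLC7-type, 19 SLC6-type, 13 SGLT, 10 Y+L (light chains of a cationic and neutral amino acid exchanger), 9 SMCT, 9 GLUT, 6 sodium-coupled neutral (SLC38-type), 4 SLC1-type, 3 vesicular inhibitory amino acid, 2 proton-coupled (SLC36-type) and 6 other amino acid transporter genes. The MCT descriptions were the most numerous among the genes left out for low counts, with 67 of the 98. Library totals ran from 9359212 to 11815263 counts, and the members together took between 0.898% and 0.966% of the counts of a library. Where a library held no count of a gene, up to 3 counts could have been missed, a limit that covers counting error only. Marker lists for skeletogenic (19 genes), gut (121), muscle (12), neuron (24), pigment (13) and ciliated (12) cells were detected in all treatments, with 5 gut genes and no gene of the other lists at 0 in every library.

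Levels between genes were compared per length, in FPKM (fragments scaled by gene length and by library size). The most abundant member was LOC121428864 (chromosome 15, 9630887 to 9661070), described as a sodium- and chloride-dependent neutral and basic amino acid transporter B(0+)-like, a carrier that in mammals takes up both neutral and cationic amino acids. It averaged 643 ± 9.38 FPKM with K02288, 610.4 ± 26.7 with axitinib and 613 ± 73.2 in DMSO (SD, n = 3 each), and held 27.0% of the FPKM of all members in DMSO. Its normalized counts (counts scaled by TMM over the 9 libraries) stood at 29810.3, 28993 and 29357 in K02288 libraries, at 28832, 28188 and 26467 in axitinib libraries and at 30685, 24212 and 28884 in DMSO. All 3 treatments overlapped in this gene, and its log2 fold change was 0.07 (SE 0.13) for K02288 and -0.01 (SE 0.13) for axitinib.

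Behind it in DMSO came 3 genes described as sodium- and chloride-dependent glycine transporter 1-like, carriers that take up glycine in vertebrates: LOC121424436 at 162 ± 28.0 FPKM, LOC121424023 at 94.4 ± 7.16 and LOC121423682 at 94.0 ± 19.4. The MCT genes LOC121418682 (13-like, 87.4 ± 17.7 FPKM) and LOC121430638 (2-like, 87.1 ± 7.91) followed. Among these 5, the values of neighbours in the order from LOC121424023 down to LOC121430638 lay within 1 SD of each other, and only LOC121424436 stood above the rest by more than its SD. The 19 SLC6-type genes held 51.1% of the members' FPKM in DMSO, and the 89 MCT genes held 17.2%, since most MCT genes were low (median 1.30 FPKM).

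Summed per family, the MCT genes reached 464 to 485 FPKM with K02288 and 549 to 656 FPKM with axitinib, against 364 to 410.5 FPKM in DMSO, so that the 3 treatments did not overlap. The SLC6-type genes summed to 1096 to 1167 FPKM with K02288, 957 to 1021 with axitinib and 1097 to 1228 in DMSO, where axitinib lay below the others. The SMCT genes reached 94.2 to 126 FPKM with K02288 and 118 to 154 with axitinib, against 73.0 to 109 in DMSO, where axitinib did not overlap DMSO. In the other families the axitinib and DMSO ranges overlapped. These sums are descriptions of the most abundant genes of each family and carry no test. The MCT sums include LOC121430638 and the SLC6-type sums LOC121424436, both named by the rule, which was set with earlier results known. LOC121430638 averaged 235 FPKM with axitinib and 87.1 in DMSO, and LOC121424436 averaged 45.2 and 162. Sums without these genes were not computed.

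**Figure D1:**
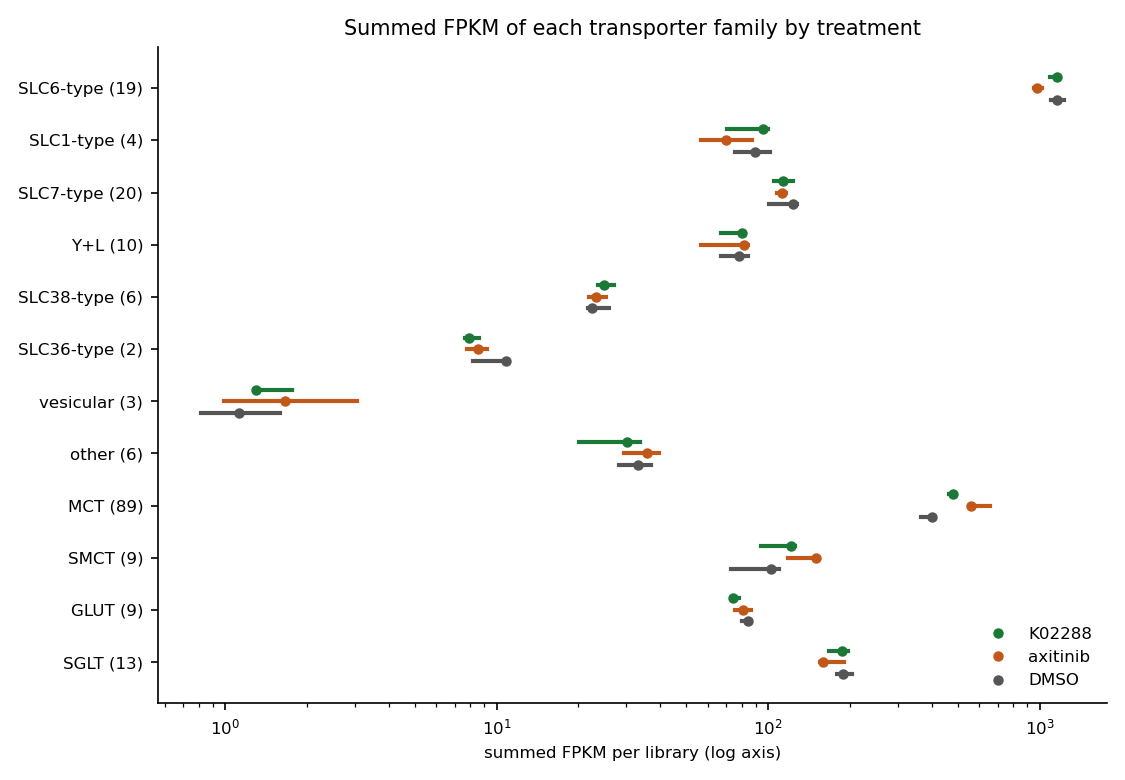
Summed FPKM per library (log axis) of each transporter family with its number of genes, for K02288 (green), axitinib (orange) and DMSO (grey). Points are the median library and bars run from the lowest to the highest of the 3 libraries. The MCT bars of the 3 treatments do not overlap, with axitinib at 549 to 656 FPKM and DMSO at 364 to 410.5 FPKM. They include LOC121430638, which the rule of the set names.

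Treatments were compared pairwise on the counts of 6 libraries by the quasi-likelihood test of edgeR, and a gene was called at the unadjusted p of at most 0.05 of the study's methods. Benjamini-Hochberg adjusted p over all genes tested, and a second fit that adds the mating (the replicate block), stand beside these calls. For axitinib against DMSO, 158 members passed the filter on low counts. Of these, 10 were lower (6.33%, where 3.07% of all 16035 genes tested were called lower) and 9 were higher (5.7%, where 1.77% of all genes were called higher). At an adjusted p under 0.05, 1 member was lower and 1 higher (0.0998% and 0.0249% of all genes), and by DESeq2 7 passed (0.75% of the genes it adjusted). The edgeR ones were LOC121424436 and LOC121430638, which the rule of the set names, so their count beside the share of all genes was not independent of that choice. Once the fit held a mating term, the adjusted p was under 0.05 for 10 lower and 13 higher members (3.44% and 2.79% of all genes), and 17 of the 19 were among them; at the unadjusted threshold it called 47 (17.8% of all genes).

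For K02288 against DMSO, 165 members were tested, and 3 were lower (1.82%, where 1.23% of all 16288 genes were called lower) and 5 higher (3.03%, where 1.22% of all genes were called higher). None had an adjusted p under 0.05 by edgeR or DESeq2 (0.00614% of all genes were called lower and 0% higher by edgeR, and 0.1% of the genes it adjusted, in either direction, by DESeq2). At the unadjusted threshold DESeq2 called 6 (1.84% of the genes it tested). With the mating term, the adjusted p was under 0.05 for 2 lower and 6 higher members (1.05% and 1.83% of all genes), 4 of them shared with the 8, and 34 were called at the unadjusted threshold (13.2% of all genes). The count without a mating term changed with single libraries: it was 1 without the DMSO library of mating 1, and 4 without the K02288 library of mating 1, the K02288 library of mating 3 or the DMSO library of mating 2. The share of all genes called in these smaller fits was not computed, so whether the fall is particular to the members was not tested. LOC121431578, called lower, passed the filter on low counts only through the DMSO libraries, where it was high. LOC121418535, called higher, passed it through the K02288 libraries, where it was high.

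The median log2 fold change over the members tested was 0.05 with axitinib, beside 0.01 over all genes, and -0.02 with K02288, beside 0.01. With the mating term the K02288 median was 0.0051, beside 0.0069 over all genes. The contrasts with K02288 and with axitinib share the DMSO libraries. The 10 members that fell with axitinib were 5 of the SLC6-type, 2 of the SLC7-type and 1 each of the SLC1-type, SMCT and SGLT, and the 9 that rose were 5 MCT, 2 SMCT and 2 SLC6-type genes. No tested gene of the GLUT, SLC38-type, SLC36-type, vesicular or Y+L groups was called in either contrast over all 6 libraries without the mating term.

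**Figure D2:**
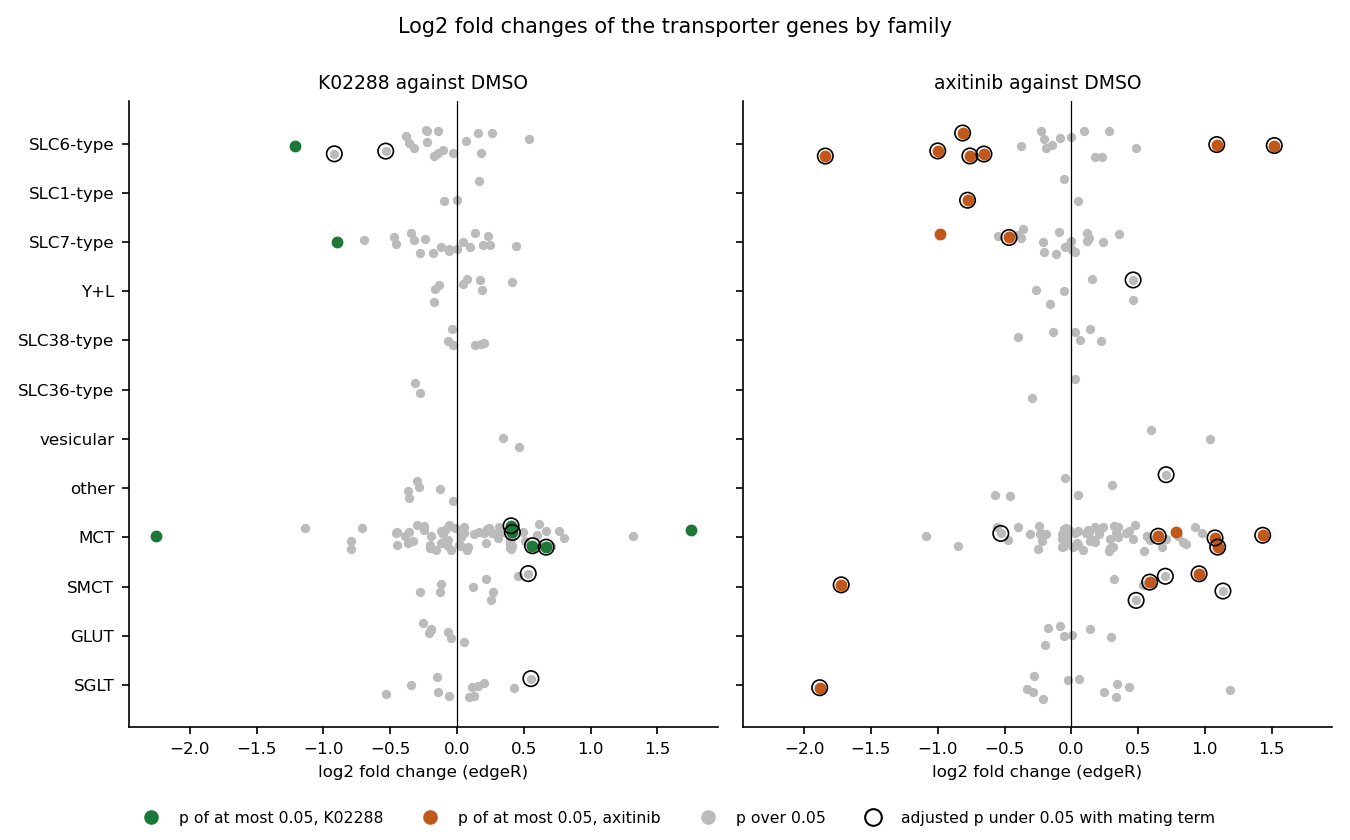
Log2 fold changes (edgeR) of the members tested, by family, for K02288 against DMSO (left) and axitinib against DMSO (right). Filled green or orange points had an unadjusted p of at most 0.05, grey points did not, and black rings mark an adjusted p under 0.05 in the fit that has a mating term; under axitinib 10 members were called lower and 9 higher, under K02288 3 and 5.

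Genes described as glycine transporter 1-like made up 5 of the 10 members that fell with axitinib. Of the 9 such members, all tested, 5 were lower and none higher, where 3.07% and 1.77% of all genes were called. Their median log2 fold change was -0.65, beside 0.01 over all genes. The 5 include LOC121424436, which the rule of the set names. Groups of a single description, here and below, were not set beforehand, so this count was not independent of these data. The largest fall was that of LOC121424436 (chromosome 11, 19090997 to 19099845). It had 2580.2, 2735 and 2188 normalized counts in axitinib-treated embryos and 8439, 8029 and 6559 with K02288, against 8018, 10740.0 and 8137 in DMSO. Every axitinib library lay below every other library, while the K02288 and DMSO libraries overlapped. The log2 fold change with axitinib was -1.84 (SE 0.17, adjusted p = 0.0141 by edgeR), 0.279 times the DMSO level, and it kept its call without any single library.

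LOC121412006 and LOC121412024 lie with at most 1 gene between them on chromosome 1 (33700969 to 33787113) and are of the same description. LOC121412006 had 361, 537 and 311 normalized counts with axitinib and 732, 1077 and 611 in DMSO, so that all axitinib libraries were below all DMSO libraries. It fell by 1.00 on the log2 scale (SE 0.28, adjusted p = 0.542, and 2.17e-05 with the mating term), and the call held without any single library. LOC121412024 had 161, 221 and 163 normalized counts with axitinib and 242, 459 and 219.9 in DMSO, where the groups overlapped by the axitinib library of mating 2. Its log2 fold change was -0.76 (SE 0.31, adjusted p = 0.995, and 0.00938 with the mating term), and the call was lost without the axitinib library of mating 1 (-0.68) or mating 3 (-0.69) or the DMSO library of mating 2 (-0.35).

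The other 2 of the 5 were among the more abundant genes of the group. LOC121408800 had 1668, 927 and 1173 normalized counts with axitinib and 2897, 1729 and 1998 in DMSO, without overlap, and a log2 fold change of -0.81 (SE 0.27, adjusted p = 0.743, and 4.31e-05 with the mating term). Its call was lost without the axitinib library of mating 2 (-0.64) or 3 (-0.77) or the DMSO library of mating 1 (-0.57). LOC121423682 had 6132, 3044 and 4901 normalized counts with axitinib and 8462, 5638 and 8049 in DMSO. Within each mating the axitinib library was the lower, but the groups overlapped (6132 in the axitinib library of mating 1, against 5638 in the DMSO library of mating 2), and the call (-0.65, SE 0.27, adjusted p = 0.989, and 0.00043 with the mating term) held only without the axitinib library of mating 1 (-0.89) or the DMSO library of mating 2 (-0.81).

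The remaining 4 glycine transporter 1-like genes were not called with axitinib, and their log2 fold changes ran from -0.38 in LOC121414944 to 0.18 in LOC121406932. LOC121424023, the second most abundant of the group, averaged 6026 ± 361 normalized counts with axitinib and 5650.3 ± 426 in DMSO (SD, n = 3 each), a log2 fold change of 0.09 (SE 0.12, not called). With K02288 none of the 9 was called without the mating term. LOC121412006, with 464, 899.6 and 310.0 normalized counts under K02288, had a log2 fold change of -0.53 (SE 0.39) that was not called over all 6 libraries but was without the K02288 library of mating 2 (-1.06), and it passed with the mating term (adjusted p = 0.0103). The K02288 library was below the DMSO library in each mating.

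**Figure D3:**
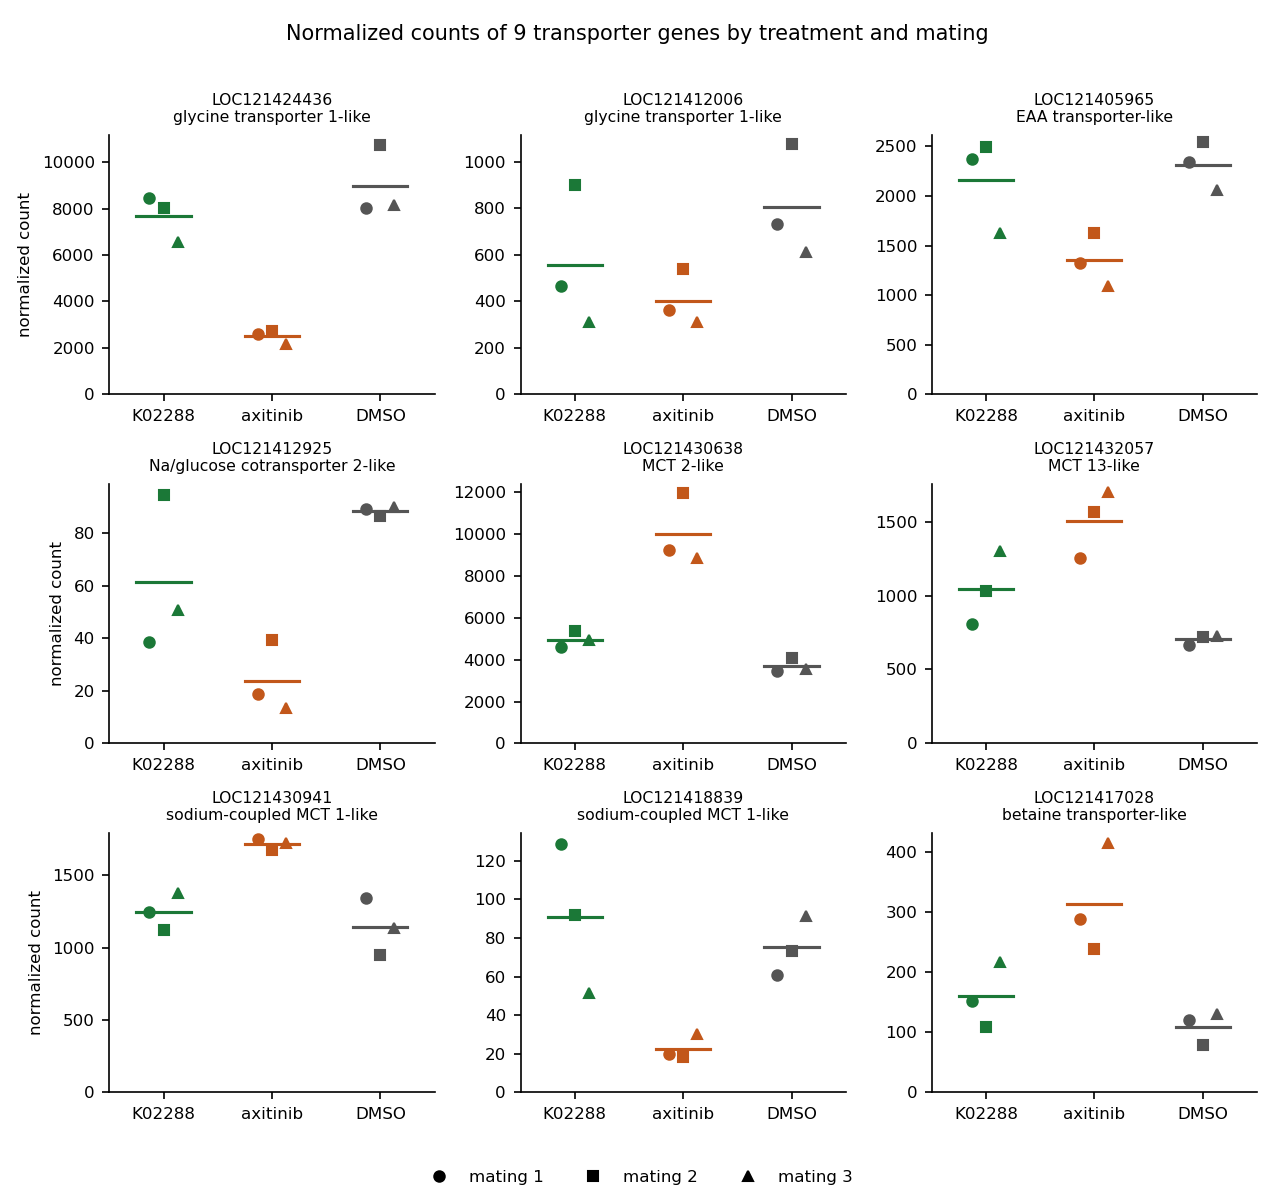
Normalized counts of 9 members in each library, with K02288, axitinib and DMSO from left to right and a bar at the mean of each treatment. Symbols mark the mating; the upper row and LOC121412925 and LOC121418839 lie lower with axitinib (LOC121424436 at 2188 to 2735, against 8018 to 10740.0 in DMSO), and LOC121430638, LOC121432057, LOC121430941 and LOC121417028 lie higher.

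The betaine transporter-like genes, whose vertebrate counterpart takes up the osmolyte betaine, gave calls in the other direction with axitinib. Of 6 such members, 2 rose and none fell, where 1.77% and 3.07% of all genes were called. LOC121417028 (chromosome 6, 13051766 to 13105845) had 288, 239 and 414 normalized counts with axitinib and 152, 109 and 217 with K02288, against 119.6, 78.7 and 129.9 in DMSO. Axitinib did not overlap DMSO, K02288 did, and with axitinib the log2 fold change was 1.52 (SE 0.29, adjusted p = 0.186, and 1.33e-05 with the mating term), a call that held without any single library. With K02288 the log2 fold change was 0.54 (SE 0.32, not called).

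LOC121415821 (chromosome 5, 25993734 to 26024661) was the member that differed from DMSO in opposite directions. It had 25, 23.0 and 9.39 normalized counts with K02288 and 102, 99.6 and 82.4 with axitinib, against 54.4, 49.5 and 29.3 in DMSO, and no group overlapped another. With axitinib the log2 fold change was 1.09 (SE 0.32, adjusted p = 0.588, and 0.0110 with the mating term), and the call held without any single library. With K02288 it was -1.21 (SE 0.50, adjusted p = 1.00, and 0.0866 with the mating term), and the call held only without the DMSO library of mating 3 (-1.44). LOC121415699, also betaine transporter-like, had 16.3, 132 and 61.1 normalized counts with K02288, 59.8, 361 and 132 with axitinib and 64.1, 195 and 135 in DMSO. Differences between matings were larger than those between treatments here, and K02288 was not called against DMSO over all 6 libraries but passed with the mating term (log2 fold change -1.07, SE 0.23, adjusted p = 0.0174) and, with no such term, without the K02288 library of mating 2 (-1.77).

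Among the SLC1-type genes, the excitatory amino acid transporter-like gene LOC121405965 (chromosome 19, 15601113 to 15674633), of the glutamate and aspartate carriers, fell with axitinib. It had 1329, 1625 and 1098 normalized counts with axitinib and 2372, 2498 and 1629.8 with K02288, against 2339, 2544 and 2059 in DMSO. All axitinib libraries lay below all DMSO libraries, which the K02288 libraries overlapped. The log2 fold change was -0.78 (SE 0.18, adjusted p = 0.329, and 8.36e-05 with the mating term), and the call held without any single library.

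Of the 20 SLC7-type genes, 2 fell with axitinib, where 3.07% of all genes were called lower. LOC121407026, a b(0,+)-type light chain of the carrier for cystine and dibasic amino acids, had 385, 323 and 377 normalized counts with axitinib and 503, 553 and 443 in DMSO, without overlap. Its log2 fold change was -0.47 (SE 0.17, adjusted p = 0.818, and 0.0407 with the mating term), and the call was lost without the axitinib library of mating 2 (-0.40) or the DMSO library of mating 1 (-0.47) or 2 (-0.39). LOC121427818, cationic amino acid transporter 2-like, a carrier of arginine and lysine in mammals, had 19.2, 25.8 and 21.6 normalized counts with K02288, 17.8, 26.2 and 18.9 with axitinib and 44.6, 48.6 and 31.4 in DMSO. Both drugs lay below DMSO without overlap, at -0.90 (SE 0.39) for K02288 and -0.98 (SE 0.41) for axitinib, but neither passed with the mating term (adjusted p = 0.272 and 0.16). The K02288 call held only without the DMSO library of mating 3 (-1.06), and the axitinib call only without that library (-1.14) or the axitinib library of mating 2 (-1.18).

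In the remaining amino acid families no gene tested was called against DMSO over all 6 libraries without the mating term. The Y+L gene LOC121418939 had 421, 313 and 327 normalized counts with axitinib and 311, 206 and 253 in DMSO (log2 fold change 0.46, adjusted p = 0.0394 with the mating term) and was also called without the DMSO library of mating 1 (0.62). LOC121406377, described as amino acid transporter AVT1D-like after a plant family of vacuolar carriers, had 178, 152 and 227 with axitinib and 143, 56.6 and 141 in DMSO (0.71, adjusted p = 0.0287 with the mating term). Both were without overlap between axitinib and DMSO. The 6 SLC38-type genes had median log2 fold changes of 0.05 with K02288 and 0.04 with axitinib, and the most abundant, LOC121423132, averaged 439 ± 119 normalized counts with K02288, 438 ± 73.9 with axitinib and 398 ± 105 in DMSO.

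Among the proton-linked carriers, the MCT 2-like gene LOC121430638 (chromosome 17, 7333553 to 7344339) rose with axitinib. In vertebrates MCT2 carries lactate and pyruvate. It had 9222, 11964 and 8872 normalized counts with axitinib and 4602, 5349.8 and 4923 with K02288, against 3473, 4093 and 3563 in DMSO. The treatments did not overlap, with axitinib highest, K02288 next and DMSO lowest in every mating. With axitinib the log2 fold change was 1.43 (SE 0.16, adjusted p = 0.0290), or 2.70 times the DMSO level, and the call held without any single library. With K02288 it was 0.41 (SE 0.13, adjusted p = 1.00, and 0.0128 with the mating term), and the call was lost without the DMSO library of mating 1 (0.37).

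In FPKM, LOC121430638 averaged 116 ± 8.85 with K02288 and 235 ± 39.2 with axitinib, against 87.1 ± 7.91 in DMSO (SD, n = 3 each), so that it was the second most abundant member in axitinib-treated embryos, where LOC121424436 was at 45.2 ± 5.04. None of the other 5 MCT 2-like members was called with K02288, where all 6 were tested. With axitinib only 4 of the 6 were tested, without LOC121409694 and LOC121406906, and no other MCT 2-like gene was called.

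The MCT 13-like genes, 9 members, are of a group whose substrates are little known. LOC121432057 (chromosome 18, 16091367 to 16119000) had 808, 1031 and 1301 normalized counts with K02288 and 1255, 1564 and 1703 with axitinib, against 665, 720.4 and 729.9 in DMSO. Both drugs lay above DMSO without overlap. With axitinib the log2 fold change was 1.10 (SE 0.16, adjusted p = 0.0643, and 6.43e-06 with the mating term), and the call held without any single library. With K02288 it was 0.57 (SE 0.19, adjusted p = 1.00, and 0.0107 with the mating term), and the call was lost without the K02288 library of mating 3 (0.38) or the DMSO library of mating 1 (0.52).

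A second MCT 13-like gene, LOC121407719, rose with axitinib at low counts of 57.7, 57.4 and 104, against 31.5, 36.2 and 35.6 in DMSO (log2 fold change 1.08, SE 0.36, adjusted p = 0.749, and 0.0478 with the mating term), and lost its call without the axitinib library of mating 3 (0.74). The abundant MCT 13-like gene LOC121418682 had 6249, 6978 and 5875 normalized counts with K02288 and 5079, 7337 and 5071 with axitinib, against 4489, 5883 and 4023 in DMSO. It was higher with K02288 in each mating but overlapped DMSO, with a log2 fold change of 0.40 (SE 0.17, adjusted p = 1.00, and 0.0178 with the mating term) that was called only as long as no library was left out or the DMSO library of mating 2 was (0.58). LOC121409720, also 13-like, had 77.7, 209 and 180.4 normalized counts with axitinib and 133, 316 and 225 in DMSO, and passed only with the mating term, in the lower direction (-0.55, SE 0.15, adjusted p = 0.0478).

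LOC121424475 and LOC121406358 were the other MCT genes that rose with axitinib. LOC121424475, described as MCT 9-like, a carnitine carrier in mammals, had 212, 286 and 258 normalized counts with axitinib and 132, 183 and 167 in DMSO. The groups did not overlap, the log2 fold change was 0.65 (SE 0.21, adjusted p = 0.737, and 0.0103 with the mating term), and the call was lost without the axitinib library of mating 2 (0.54) or the DMSO library of mating 1 (0.52). LOC121406358 (14-like) had 106, 131 and 146 with axitinib and 90.2, 77.8 and 54.5 in DMSO. It did not pass with the mating term (adjusted p = 0.0545), and its call (0.78, SE 0.28) was lost without the axitinib library of mating 2 (0.75) or 3 (0.67) or the DMSO library of mating 3 (0.61).

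With K02288 the MCT 12-like genes, whose mammalian counterpart carries creatine, gave a call in each direction among the 15 tested of 20 members. Of all genes, 1.23% were called lower and 1.22% higher. LOC121414239 (chromosome 4, 49863124 to 49873185) had 1134, 648 and 682 normalized counts with K02288 and 528, 486 and 462 with axitinib, against 530.5, 475 and 541 in DMSO. All K02288 libraries were above all others. The log2 fold change was 0.67 (SE 0.24, adjusted p = 1.00, and 0.0135 with the mating term), but the call was lost without the K02288 library of mating 1 (0.36), which was the highest, or without the DMSO library of mating 1 (0.69) or 2 (0.61).

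LOC121431578, the MCT 12-like gene that fell, had 1.92, 0.957 and 8.45 normalized counts with K02288 and 18.5, 20.3 and 16.8 in DMSO. At this depth its log2 fold change of -2.26 (SE 0.78, adjusted p = 0.0792 with the mating term) was called only with all libraries or without the K02288 library of mating 3 (-3.58). It passed the filter on low counts only through the DMSO libraries, where it was high, so its call was not independent of that filter. LOC121418535, an MCT 3-like gene that rose, had 13.5, 33.5 and 36.6 normalized counts with K02288 and 2.17, 10.6 and 11.5 in DMSO, without overlap. Its log2 fold change of 1.75 (SE 0.71, adjusted p = 0.0642 with the mating term) was called only with all libraries or without the K02288 library of mating 1 (2.08). LOC121418535 passed the filter through the K02288 libraries, where it was high.

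The SMCT genes were all described as SMCT 1-like, a carrier that in vertebrates takes up lactate, pyruvate and short-chain fatty acids. With axitinib their median log2 fold change was 0.59, beside 0.01 over all genes. Of the 9, 8 had positive values, where 47.8% of all genes had negative ones. Only 2 were called higher and 1 lower without the mating term (1.77% and 3.07% of all genes). With it the adjusted p was under 0.05 for 5 higher genes and 1 lower gene (2.79% and 3.44% of all genes). LOC121430941 (chromosome 17, 29959706 to 30025588), the most abundant, had 1752, 1677 and 1725 normalized counts with axitinib and 1341, 952 and 1137 in DMSO. The groups did not overlap, and the log2 fold change was 0.59 (SE 0.16, adjusted p = 0.495, and 0.00196 with the mating term), a call that held without any single library.

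LOC121431367 had 3244, 1581 and 3133 normalized counts with axitinib and 1968, 1135 and 1782 in DMSO, where the library of mating 2 was low in both treatments. The groups overlapped, and the log2 fold change of 0.70 (SE 0.31) was not called over the 6 libraries but passed with the mating term (adjusted p = 0.000432), and was called without the axitinib library of mating 2 (0.96). LOC121420218 had 1143, 879 and 1467 normalized counts with K02288 and 1089.6, 1022 and 1253 with axitinib, against 871, 574 and 959 in DMSO. With the mating term both drugs were above DMSO, by 0.54 for K02288 (SE 0.10, adjusted p = 0.00453) and by 0.51 for axitinib (SE 0.11, adjusted p = 0.0118). LOC121425898 likewise passed with the mating term (1.23 for axitinib, SE 0.33, adjusted p = 0.0376), and otherwise only without the DMSO library of mating 3 (1.90).

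LOC121418839 and LOC121418840 are SMCT 1-like genes with at most 1 gene between them on chromosome 7 (25446729 to 25539496), and they differed in direction. LOC121418839 had 19.9, 18.1 and 30.1 normalized counts with axitinib, against 60.9, 73.4 and 91.1 in DMSO. It fell by 1.72 on the log2 scale (SE 0.37, adjusted p = 0.278, and 0.00204 with the mating term), and the call held without any single library. LOC121418840 had 118, 108 and 129 normalized counts with axitinib and 98.9, 50.4 and 33.5 in DMSO, also without overlap. It rose by 0.96 (SE 0.40, adjusted p = 0.998, and 0.0325 with the mating term), and its call held only without the DMSO library of mating 1 (1.48).

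**Figure D4:**
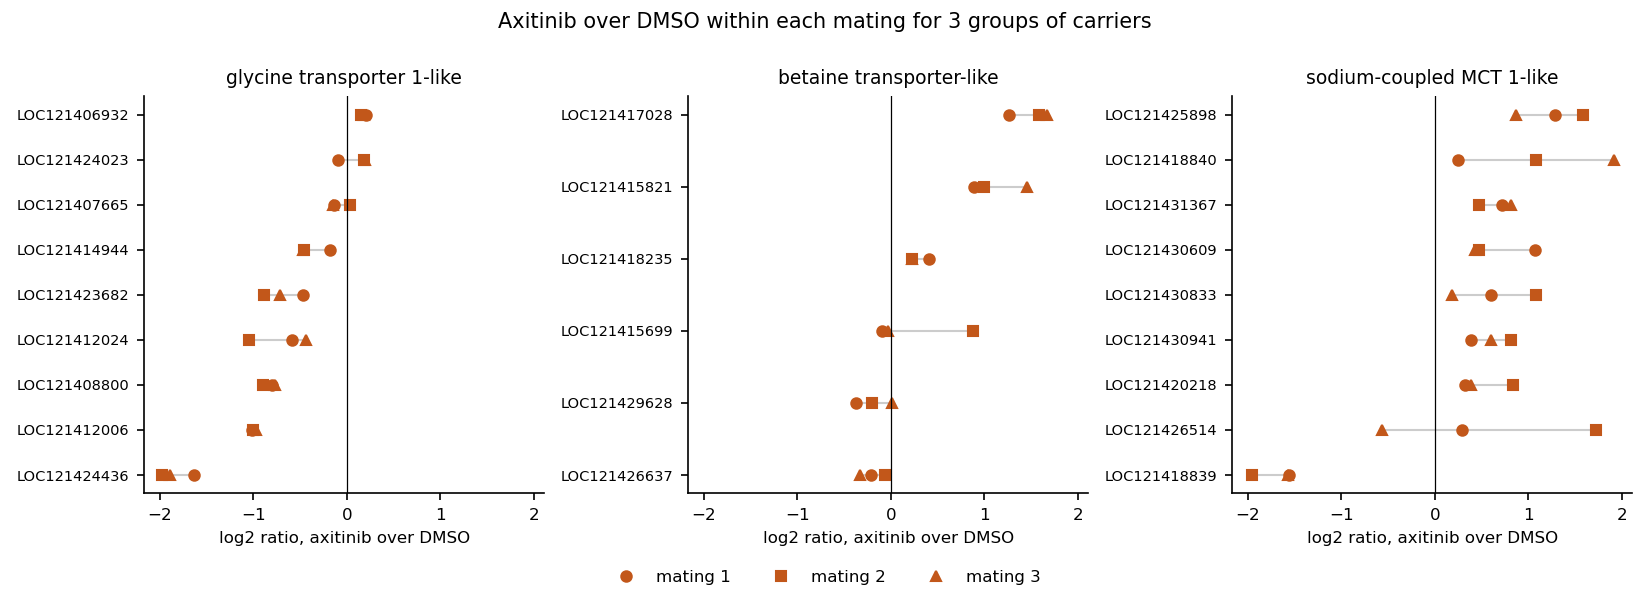
Log2 ratio of normalized counts (with 1 added), axitinib over DMSO, within each mating for every member described as glycine transporter 1-like (9 genes), betaine transporter-like (6) and SMCT 1-like (9). Symbols mark the mating and grey lines join the lowest and highest; LOC121424436 and LOC121418839 lie below zero and LOC121417028 and LOC121425898 above zero in every mating.

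Of the glucose carriers, 7 GLUT and 12 SGLT genes were tested with each drug. Without the mating term 1 SGLT gene was called, lower with axitinib. Of all genes, 3.07% were called lower and 1.77% higher with axitinib, and 1.23% and 1.22% with K02288. None of the 7 GLUT genes tested against DMSO was called with either drug in either fit, and the median of their log2 fold changes was -0.19 for K02288 and -0.05 for axitinib. The most abundant, LOC121427347 (member 5-like, a fructose carrier in mammals), averaged 194 ± 41.9 normalized counts with K02288, 231 ± 41.0 with axitinib and 230.3 ± 33.8 in DMSO (SD, n = 3 each). Its differences from DMSO were within the spread between libraries.

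Of the 13 SGLT genes, LOC121412925 (SGLT 2-like, the main glucose carrier of the kidney tubule in mammals; chromosome 4, 28414980 to 28421271) fell with axitinib. It had 18.9, 39.2 and 13.4 normalized counts with axitinib and 38.5, 94.7 and 50.7 with K02288, against 89.1, 86.6 and 90.1 in DMSO. The DMSO libraries lay close together and above all axitinib libraries, while K02288 spread over both. The log2 fold change with axitinib was -1.88 (SE 0.43, adjusted p = 0.330, and 0.00157 with the mating term), and the call held without any single library. With K02288 only LOC121414586, SGLT 4-like, passed with the mating term, where 1.83% of all genes passed as higher. It had 444, 203 and 442 normalized counts with K02288, against 263, 142 and 335 in DMSO (0.55, SE 0.13, adjusted p = 0.0265). The most abundant SGLT gene, LOC121409212, averaged 3307 ± 658 normalized counts with K02288, 2821 ± 817 with axitinib and 3429.5 ± 644 in DMSO and was not called.

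The inhibitors were also compared with each other. For K02288 against axitinib, 163 members were tested, and 9 were lower (5.52%, where 1.77% of all 16197 genes were called lower) and 6 higher (3.68%, where 3.22% of all genes were called higher) with K02288. With the mating term, the adjusted p was under 0.05 for 12 lower and 9 higher members (3.1% and 5.06% of all genes), 14 of them shared with the 15, and 46 were called at the unadjusted threshold (19.6% of all genes). Without it only LOC121424436, which was higher with K02288, had an adjusted p under 0.05 (0.0309% of all genes passed in the lower and 0.123% in the higher direction; by DESeq2 4 members passed, against 0.918% of the genes it adjusted), with a log2 fold change of 1.62 (SE 0.15, adjusted p = 0.0153).

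The genes lower with K02288 than with axitinib included both betaine transporter-like genes described above. LOC121415821 differed by -2.30 (SE 0.41, adjusted p = 0.157, and 0.000136 with the mating term) and LOC121417028 by -0.97 (SE 0.31, adjusted p = 0.631, and 0.000187 with the mating term), the second losing its call without the axitinib library of mating 3 (-0.72). LOC121430638 (MCT 2-like) differed by -1.02 (SE 0.15, adjusted p = 0.0914, and 7.13e-07 with the mating term) and LOC121430941 (SMCT 1-like) by -0.46 (SE 0.13, adjusted p = 0.519, and 0.00248 with the mating term). Of these 4, all but LOC121417028 kept their call without any single library.

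LOC121410849, an MCT 12-like gene that neither drug moved past the threshold against DMSO, had 115, 71.8 and 62.9 normalized counts with K02288, against 206, 117 and 124 with axitinib. The log2 difference was -0.83 (SE 0.34, adjusted p = 0.934, and 0.00666 with the mating term), and the call was lost without the K02288 library of mating 2 (-0.74) or 3 (-0.67) or the axitinib library of mating 1 (-0.53). The remaining lower calls were LOC121406358, LOC121432057, LOC121418840 and LOC121425898, between -0.53 and -1.25, and each of them lost its call without at least 2 of the 6 libraries, among them the axitinib library of mating 3 for all (-0.72, -0.43, -0.64 and -0.81, in the order named).

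Higher with K02288 than with axitinib were, besides LOC121424436, the SMCT 1-like gene LOC121418839 by 2.00 (SE 0.43, adjusted p = 0.241, and 0.00219 with the mating term) and the MCT 12-like gene LOC121414239 by 0.74 (SE 0.24, adjusted p = 0.633, and 0.00184 with the mating term), both of which kept their call without any single library. LOC121405965 differed by 0.68 (SE 0.22, adjusted p = 0.621, and 9.93e-05 with the mating term), a call that was lost without the K02288 library of mating 1 (0.61) or 2 (0.56) or the axitinib library of mating 3 (0.55). LOC121412925 (1.35, SE 0.54) and LOC121409684, an MCT 12-B-like gene (0.73, SE 0.30), were called in only 2 of the 6 fits that left out a library: without the K02288 library of mating 1 (1.60) or the axitinib library of mating 2 (1.92) for the SGLT gene, and without the K02288 library of mating 2 (0.97) or the axitinib library of mating 3 (0.87) for the MCT gene.

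Many members have a neighbour of their own family. With at most 1 gene between them, 91 of the 288 described genes stood in 36 such groups, and 54 of the 91 were members. How reads that fit several copies were counted is not given in the sources used here, so the values of close copies are uncertain to that extent. Besides the glycine transporter pair on chromosome 1, which fell together with axitinib, and the SMCT pair on chromosome 7, which parted, LOC121427818 has a cationic amino acid transporter neighbour (LOC121428039) with log2 fold changes of -0.47 for K02288 and -0.55 for axitinib, neither called, and LOC121418535 stands in a row of 4 MCT members on chromosome 7 (15210282 to 15298399) whose other 3 had values of 0.41 to 0.76 with K02288 and no call.

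Other genes of the same physiology were followed in lists fixed by description. Among 23 exchangers described as large neutral amino acid, cystine/glutamate or basic amino acid transporters, 12 were tested with K02288, of which 2 fell and 2 rose, and 13 with axitinib, of which 4 fell and 3 rose. Of all genes tested, 1.23% were called lower and 1.22% higher with K02288, and 3.07% and 1.77% with axitinib. With the mating term the adjusted p was under 0.05 for 1 lower and 1 higher gene with K02288 (1.05% and 1.83% of all genes) and for 3 lower and 1 higher with axitinib (3.44% and 2.79%). The calls of 4 cystine/glutamate transporter-like genes, LOC121409371 with K02288 and LOC121423277, LOC121409377 and LOC121407806 with axitinib, each held in only 1 of the 6 fits that left out a library. LOC121419201 of this list was called lower with both drugs. With axitinib its call held without any single library (-0.69 to -1.13). With K02288 it was lost without the K02288 library of mating 2 (-0.55) or the DMSO library of mating 2 (-0.56) or 3 (-0.57). LOC121408564, large neutral amino acids transporter small subunit 4-like, had 10245, 9808 and 13127 normalized counts with K02288 and 8530.2, 13587 and 10372 with axitinib, against 4294, 5850.0 and 6152 in DMSO. Both drugs lay above DMSO without overlap, at 1.02 (SE 0.19) for K02288 and 1.00 (SE 0.21) for axitinib, with adjusted p of 3.71e-05 and 1.78e-05 with the mating term, and both calls held without any single library. Without the mating term no gene, this one included, was higher with K02288 at an adjusted p under 0.05 (0% of all genes). LOC121407440, small subunit 1-like, went the other way, with 578, 640.3 and 430.2 normalized counts under K02288 and 424, 235 and 302 under axitinib, against 946, 763 and 710.0 in DMSO. Its log2 fold changes were -0.56 (SE 0.20) for K02288 and -1.33 (SE 0.24) for axitinib, and the axitinib call held without any single library, while the K02288 call was lost without the K02288 library of mating 3 (-0.41) or the DMSO library of mating 1 (-0.43).

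Of 11 related SLC5 carriers, 8 were tested with axitinib, and the 3 that were called all fell and are all described as sodium/myo-inositol cotransporters, which take up the osmolyte inositol. Over all genes tested with axitinib, 3.07% were called lower. LOC121414520 had 71.4, 29.2 and 80.2 normalized counts with axitinib and 287, 107 and 253 in DMSO, without overlap, and a log2 fold change of -1.84 (SE 0.48, adjusted p = 0.471, and 1.09e-05 with the mating term). LOC121414521 was at -1.75 (SE 0.45) and LOC121413768 at -1.22 (SE 0.32), and all 3 calls held without any single library. With K02288 none of the 7 tested was called, and the log2 fold changes of these 3 genes were 0.39, 0.58 and -0.29.

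In the list of glycolysis and lactate genes (22, of which 20 were tested with axitinib), a single gene rose and a single gene fell with axitinib (1.77% and 3.07% of all genes) and none was called with K02288. With the mating term the adjusted p was under 0.05 for 2 lower and 1 higher gene with axitinib (3.44% and 2.79% of all genes). The match by description took in 3 enolase-phosphatase genes and 1 enolase superfamily gene, none of them called without the mating term, which are not enzymes of glycolysis. L-lactate dehydrogenase A chain-like LOC121406038, which interconverts pyruvate and lactate, had 1673, 1308 and 1102 normalized counts with axitinib and 778, 762 and 659 in DMSO, without overlap (log2 fold change 0.89, SE 0.18, adjusted p = 0.263, and 7.65e-05 with the mating term). Hexokinase-2-like LOC121425403, which phosphorylates glucose on entry, had 2205, 2605 and 2573 with axitinib and 3734, 4156 and 3548 in DMSO, also without overlap (-0.63, SE 0.13, adjusted p = 0.278, and 0.000603 with the mating term). Both calls held without any single library.

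None of the 4 partner genes, 3 rBAT-like heavy chains and 1 basigin-like chaperone, was called against DMSO without the mating term. With that term 1 of them was higher with axitinib at an adjusted p under 0.05, as were 2.79% of all genes. The more abundant rBAT-like gene, LOC121418633, averaged 10869 ± 1636 normalized counts with K02288, 8706 ± 668 with axitinib and 10824 ± 1329 in DMSO (SD, n = 3 each). Against DMSO no call fell on the 6 peptide transporters or on the 3 genes described by the sodium/potassium ATPase, whose summed FPKM was 911 to 969 with K02288, 891 to 944 with axitinib and 894 to 1008 in DMSO.

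Sums over cell type markers were followed beside the members, and of those given here only the skeletogenic sums with both drugs and the muscle sums with K02288 did not overlap DMSO. The skeletogenic markers summed to 1578 to 1969 FPKM with K02288 and 1134.5 to 1621 with axitinib, against 2143 to 2709.7 in DMSO, and of 16 tested with K02288 5 fell and 2 rose, while of 15 tested with axitinib 6 fell and none rose. Beside these and the following counts, 1.23% of all genes were called lower and 1.22% higher with K02288, and 3.07% and 1.77% with axitinib. The gut markers summed to 2625 to 2934 FPKM with K02288, 2100 to 2556 with axitinib and 2449 to 3015 in DMSO, and with axitinib 6 of 82 fell and 3 rose. This list takes in any description that holds the words trypsin or carboxypeptidase, so its genes need not all be of gut cells. Pigment markers summed to 83.9 to 116 FPKM with K02288 and 112 to 153 with axitinib, against 86.8 to 116 in DMSO, and muscle markers to 756 to 807, 618 to 728 and 699 to 753 in the same order; with axitinib 1 of 9 pigment markers rose and 1 of 9 muscle markers fell. The part of these cell types in the members' values was not tested.

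The members also differed between matings. In a fit of all 9 libraries with treatment and mating as terms, 113 of 177 members tested (63.8%) differed between the 3 matings at an adjusted p under 0.05, where 52.7% of all 16866 genes did. The 3 libraries of a mating are dishes of embryos of the same parents, so that this p measures only the spread between dishes. Among the 113, the highest and lowest mating mean differed by over 2-fold in 56 and by over 10-fold in 8.

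The excitatory amino acid transporter 2-like gene LOC121406250 (chromosome 19, 10162811 to 10184170) was read almost only in mating 2, where it had 114 normalized counts with K02288, 102 with axitinib and 74.3 in DMSO. The other 6 libraries held between 0 and 1.11. The SGLT 4-like gene LOC121423436 was likewise high only in mating 3, at 68.6 with K02288, 59.0 with axitinib and 61.8 in DMSO, with 0 to 6.04 normalized counts in the other libraries. Such genes were nearly or wholly without counts in 2 of the 3 matings, so that each treatment rested on 1 library.

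LOC121407750, MCT 13-like, had 140.4, 77.5 and 33.8 normalized counts with K02288, 214, 105 and 44.5 with axitinib and 199, 99.0 and 45.0 in DMSO, so that mating 1 was highest and mating 3 lowest under each treatment. LOC121427591, cationic amino acid transporter 4-like, had 175, 51.7 and 142 with K02288, 229, 72.5 and 165 with axitinib and 252, 77.8 and 176 in DMSO, where mating 2 was lowest under each treatment. For these 4 genes, chosen as those with the lowest p between matings, edgeR gave adjusted p of 8.17e-09, 5.03e-07, 2.23e-07 and 5.73e-07 in the order described.

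**Figure D5:**
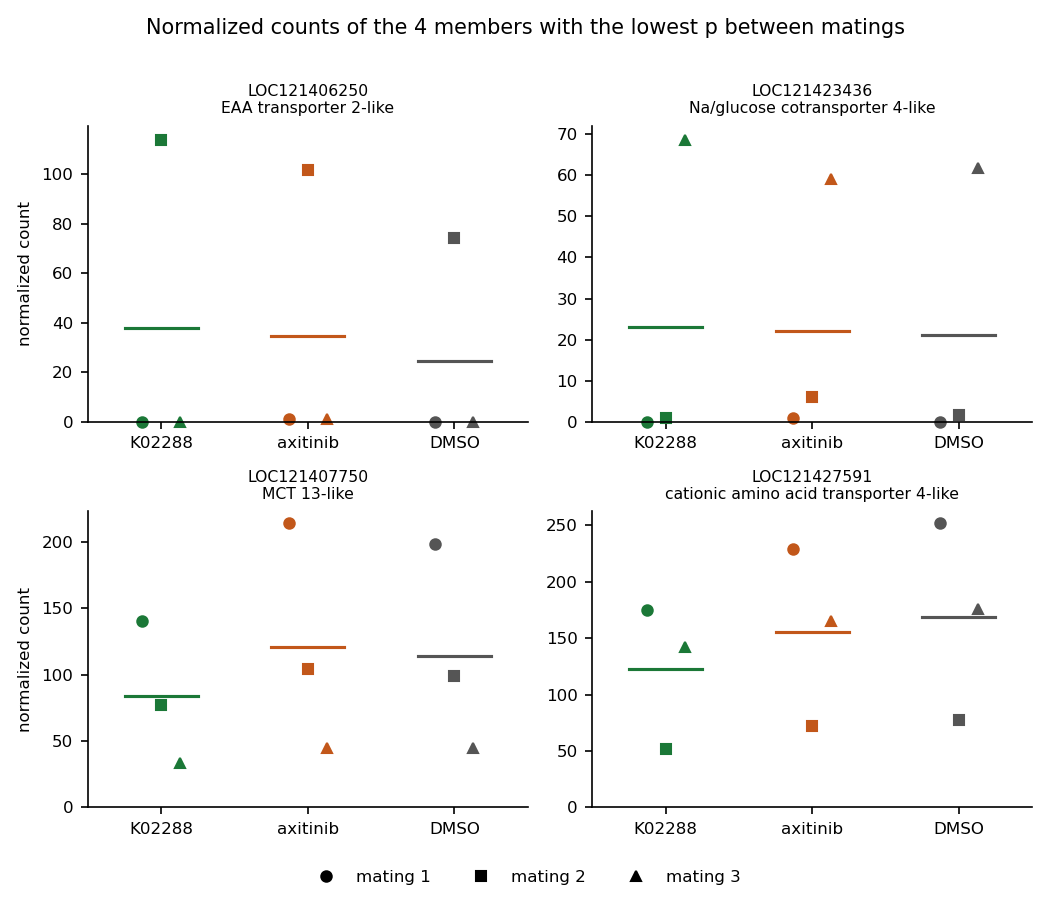
Normalized counts in each library of the 4 members with the lowest p for a difference between matings, with K02288, axitinib and DMSO from left to right, symbols for the mating and a bar at each treatment's mean. LOC121406250 is read in mating 2 (74.3 to 114) and LOC121423436 in mating 3 (59.0 to 68.6) under all 3 treatments.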

How the data were processed

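Poly-A RNA of whole embryos was sequenced in 9 libraries. Per the study's methods, the authors aligned reads with HISAT2 to the L. variegatus genome version 3.0; the counting tool and how it treated strand are not given in the sources used here. The deposited table holds whole-number counts per gene and FPKM, which the authors scaled by gene length and library size; on the file, each FPKM equalled the count over gene length and 1 scaling value per library. All 26814 gene names matched the RefSeq table of the same build.

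Counts were tested with edgeR 4.0.16 (TMM normalization, filterByExpr by treatment, glmQLFit and glmQLFTest) on the 6 libraries of each contrast. Genes with p of at most 0.05 were called, the threshold of the study, with Benjamini-Hochberg adjusted p over all genes beside it. Matings were compared in a fit of 9 libraries with treatment and mating as terms. The methods state that a replicate number is a mating, and same-numbered libraries deviated together (r of 0.706 to 0.750 over 9 pairs and 16866 genes, against -0.420 to -0.327 over the other 18 pairs), so a fit that adds the mating (replicate block) stands beside the results.

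Alternatives were DESeq2 1.42.0, limma 3.58.1 on log2(FPKM + 1), other normalizations and filters, and leaving out each library. The fits were tested on simulated data. The genes named were, per contrast, up to 6 lower and 6 higher members with the lowest p among those called, the same among those with an adjusted p under 0.05 in the fit with the mating term, the 5 most abundant members and the most abundant of each family in DMSO, LOC121424436 and LOC121430638, and the 4 with the lowest p between matings. Other members called, and the genes of the further lists, were named after their values were seen. The members and lists were chosen with earlier results of these data known. Read totals set the precision of low genes, and p-values measure the spread between libraries of 3 matings.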

Additional observations from a re-analysis of the deposited data

How the results depend on the processing

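Where a member was called in a contrast, or passed there with the mating term, its log2 fold change kept its direction under every alternative run. Members in other contrasts were not checked in this way. Against 8 members called with K02288, 19 with axitinib and 15 for K02288 against axitinib, an adjusted p under 0.05 left 0, 2 and 1, and DESeq2 with an adjusted p under 0.05, an alternative chosen after seeing the data, left 0, 7 and 4. The replicate block with unadjusted p gave 34, 47 and 46 (13.2%, 17.8% and 19.6% of all genes were called there), and with an adjusted p under 0.05 it gave 8, 23 and 21. Leaving out each library in turn gave 1 to 10 members for K02288, 14 to 20 for axitinib and 10 to 16 for K02288 against axitinib, where the lowest K02288 count came without the DMSO library of mating 1. The share of all genes called in those fits was not computed. Other normalizations, filters, DESeq2 at the unadjusted threshold, all 9 libraries in a single fit and limma kept each count within 1.5 times the one reported, and the 113 members that differed between matings stayed between 91 and 121. The median log2 fold change of the members crossed zero for K02288 with the replicate block (0.0051), with all 9 libraries in a single fit (0.0064) and without any library but the DMSO library of mating 2 (up to 0.04, without the DMSO library of mating 1), and without the axitinib library of mating 1 for K02288 against axitinib (0.02). The counts that follow cover only members in contrasts where they were called or passed with the mating term. Of their comparisons with an alternative fit, 370 kept their side of the threshold, 12 lost it and 29 gained it. With a library left out, 252 kept it, 87 lost it and 15 gained it. The cause was not tested. Depth limits genes of few counts, such as LOC121431578.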

Other observations

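The 98 described genes with a total under 30 counts entered no comparison. Of these, 67 were described as MCT, 17 as SMCT, 6 as SLC7-type, 3 as SLC6-type, 2 as SGLT, 2 as SLC1-type and 1 as Y+L. No count was found for 18, between 1 and 9 counts for 47, and between 10 and 29 for 33. In 11 of these 33, at least 80% of the counts came from the 3 libraries of 1 mating.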
